A study of Homo sapiens with 8 samples.

Results

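JUNB, SOX4, SOX12, KDM4A and TSC22D1 are 5 genes for regulators of transcription and chromatin, out of 20037 protein-coding genes of RefSeq GRCh38.p14 on the assembled chromosomes. They were selected on the intervals, fold enrichment and −log10 q values of these same lists, so the presence of an interval is a description here and was not tested. For each gene, all deposited intervals with a midpoint inside the gene or within 50 kb of either end were taken. This gave 5 of the 304 intervals listed after Nutlin-3a and 1 of the 213 listed after DMSO. RFX7 chromatin immunoprecipitation and sequencing (ChIP-seq) had been done in U2OS, a human osteosarcoma cell line. Cells had received 10 µM Nutlin-3a, which blocks the binding of MDM2 to p53 and so stabilises p53, or the solvent DMSO, each for 24 h. Both treatments had 2 RFX7 samples and 2 samples of input DNA, and each immunoprecipitation used 3 µg of an antibody to RFX7. The 2 RFX7 samples of a treatment are represented by 1 merged list, so no value below has a replicate error and no difference between treatments was tested.

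RFX7 belongs to the regulatory factor X family, whose winged-helix domain binds the X-box, a pair of inverted half-sites in DNA. The genes examined here act at different levels of transcription. JUNB is a subunit of the dimeric factor AP-1, and SOX4 and SOX12 are members of the SOXC group of DNA-bending factors with a high-mobility-group domain. KDM4A is an enzyme that removes methyl groups from histone H3, and TSC22D1 is a leucine-zipper protein first found as a gene induced by transforming growth factor beta.

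Each of the 5 genes had exactly 1 Nutlin-3a interval in its window. Of all protein-coding genes, 2.94% had a Nutlin-3a interval in a window of the same kind. Because the genes were picked for their intervals, nothing is read from that contrast. In the DMSO list only TSC22D1 had an interval (1 of 5 genes), where the share of all protein-coding genes was 0.559%. With a window of 5 kb the counts stayed at 5 and 1, and the shares of all protein-coding genes were 1.11% and 0.294%. The lists hold called intervals only, so a gene without a DMSO interval is not listed there, and its RFX7 signal after DMSO is unknown. The authors' fold enrichment and −log10 q, the caller's measure of significance corrected for multiple tests, are described below with ranks inside each list, where rank 1 is the highest. By −log10 q in the Nutlin-3a list the order was KDM4A, TSC22D1, JUNB, SOX12 and SOX4, at ranks 9, 78, 93, 99.5 and 172.5 of 304, where tied intervals share their mean rank. Without replicate values it cannot be said which neighbours in this order differ. KDM4A stood among the highest-ranked intervals, the next 3 genes lay in the upper part of the list, and SOX4 was below its middle.

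**Figure D1:**
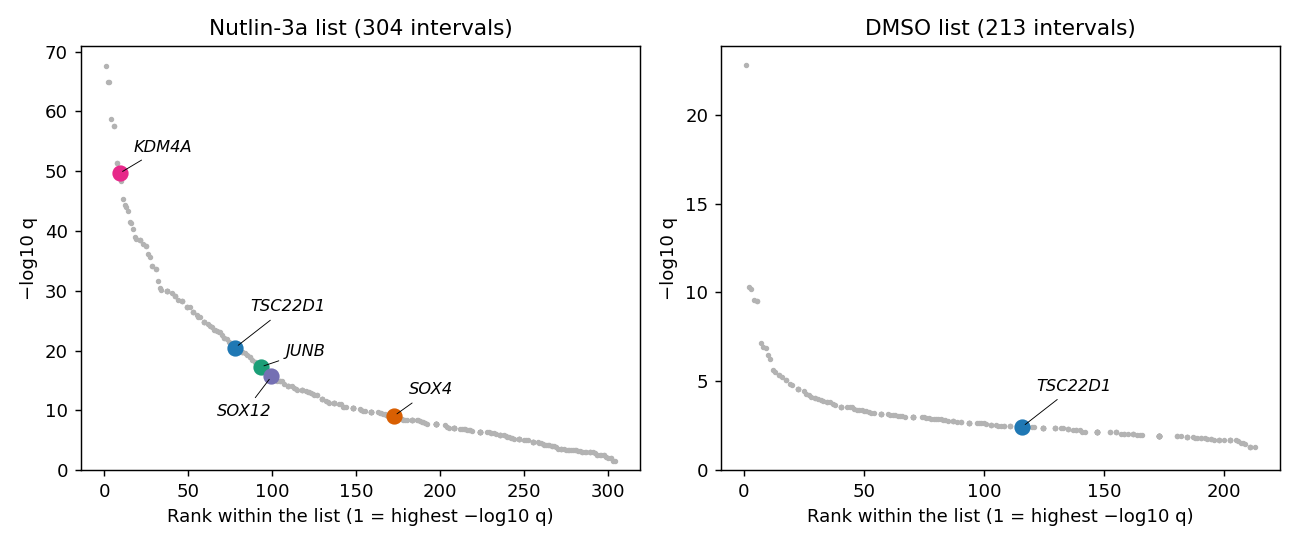
−log10 q (authors' value, linear axis) against rank for the Nutlin-3a list on the left and the DMSO list on the right, with different vertical scales. Grey points are intervals and coloured points are those near the 5 genes: KDM4A is at rank 9 of 304 and SOX4 at 172.5, and TSC22D1 alone appears in the DMSO list, at rank 116 of 213.

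The AP-1 subunit gene JUNB (gene ID 3726) lies on chromosome 19 from 12791486 to 12793315 on the plus strand. Its Nutlin-3a interval spanned 12793594 to 12793957, a width of 364 bp. It was enriched 5.83-fold, with a −log10 q of 17.3. This interval lay past the 3′ end of the intronless gene, its midpoint 460.5 bp from that end and 2289.5 bp downstream of the start site. The JUNB promoter window, from 250 bases before the start to 50 after it, was therefore outside the interval. The region is dense in genes: 9 protein-coding genes lay within 50 kb of the midpoint, among them PRDX2, RNASEH2A and GET3. After JUNB, the nearest protein-coding gene end was that of HOOK2, at 1425.5 bp. HOOK2 is on the opposite strand, and its annotated start at 12792350 falls inside JUNB. That HOOK2 start was 1425.5 bp from the midpoint, nearer than the JUNB start, and the interval lay upstream of it. The JUNB interval was 1 of 3 with the same −log10 q, and the others also had the same fold enrichment. They were nearest to PPP6R3 (390 bp from a gene end) and METTL14 (93741.5 bp), which makes these the genes most like JUNB by rank. For such genes, here and below, the distance is to the closer gene end, whether or not the midpoint lies inside the gene. A long gene around a midpoint can therefore appear distant or be passed over for a neighbour. The next Nutlin-3a interval beyond the window was 180.66 kb from JUNB, nearest to ZNF490, with a −log10 q of 19.7. The nearest DMSO interval was 5363.98 kb away.

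The SOXC gene SOX4 (gene ID 6659) lies on chromosome 6 from 21593751 to 21598619 on the plus strand. The Nutlin-3a interval at 21593596 to 21593784 was the narrowest of the 5, at 189 bp, and covered the start site, reaching from -155 to 33 bp around it. Its fold enrichment was 4.47 and its −log10 q was 9.08, a value shared by 6 intervals of the list. SOX4 is isolated: it was the only protein-coding gene within 50 kb of the midpoint, and the next protein-coding gene end, of LOC124901483, was 70851 bp away. The other 5 had as their nearest protein-coding genes PLD5, the cyclin gene CCND1, RIBC1, MECOM and PPP2R5C, and none of them is closer to SOX4 by this measure. Of these, the first 3 also had the same fold enrichment. The part of the SOX4 interval before the start site (chr6:21593596-21593750, GRCh38.p14, plus strand, from RefSeq) is shown because both this and the following SOXC promoter are covered by an interval. Capitals mark the CCAAT box, which appears as ATTGG where it is on the other strand.
SOX4: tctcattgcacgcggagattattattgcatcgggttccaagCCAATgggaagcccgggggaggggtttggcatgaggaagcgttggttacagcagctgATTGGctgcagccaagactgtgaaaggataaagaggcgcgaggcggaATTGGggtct

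SOX12 (gene ID 6666), the other SOXC gene here, lies on chromosome 20 from 325552 to 330224 on the plus strand. Its Nutlin-3a interval at 325262 to 325730, 469 bp wide, also covered the start site, from -290 to 178 bp. The fold enrichment was 7.48 and the −log10 q was 15.7. The start site of NRSN2-AS1, a non-coding gene transcribed in the opposite direction, is at 325252, so the interval filled most of the stretch between the 2 divergent starts. Within 50 kb of the midpoint lay 5 protein-coding genes, SOX12, NRSN2, ZCCHC3, C20orf96 and LOC101929937. The ranked neighbours were the intervals nearest to DAGLB (6292.5 bp) and, with the same −log10 q, to MXI1 (3710 bp), the gene of a MAX-binding repressor. The 250 bases before the SOX12 start (chr20:325302-325551, GRCh38.p14, plus strand, from RefSeq) lie wholly inside the interval. Capitals mark the CCAAT box, read as ATTGG, and the only X-box-like stretch found in the promoters of the 5 genes.
SOX12: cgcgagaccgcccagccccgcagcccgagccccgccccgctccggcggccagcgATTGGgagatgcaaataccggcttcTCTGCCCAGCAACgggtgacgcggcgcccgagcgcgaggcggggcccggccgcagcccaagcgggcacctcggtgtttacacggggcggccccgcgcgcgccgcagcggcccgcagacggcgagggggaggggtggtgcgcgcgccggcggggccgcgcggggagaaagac

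SOX4 and SOX12 thus both had an interval centred close to the start site, with midpoints at -61 and -56 bp, and neither was listed after DMSO, where the nearest intervals were 46280.63 kb from SOX4 and 9356.55 kb from SOX12. They differed in the values listed: the SOX12 interval ranked 50 by fold enrichment and 99.5 by −log10 q, whereas that of SOX4 ranked 172.5 by both. No replicate error is available to say whether this order is stable.

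The histone demethylase gene KDM4A (gene ID 9682) lies on chromosome 1 from 43650149 to 43705518 on the plus strand. Its Nutlin-3a interval at 43649484 to 43650369, 886 bp wide, reached from -665 to 220 bp around the start. The fold enrichment was 9.94, rank 12 of 304, and the −log10 q was 49.7, rank 9. By width it ranked 26. A second protein-coding gene, PTPRF, lay within 50 kb of the midpoint, with its end 26260.5 bp away. Tied at rank 7.5 directly above it were an interval 41682.5 bp from an end of PIK3R3, which encodes a regulatory subunit of PI3 kinase, and one 604 bp from an end of AKT1S1. The former was also listed after DMSO, and the latter, like that of KDM4A, was not. The nearest DMSO interval to KDM4A was 2427.66 kb away. The 250 bases before the start (chr1:43649899-43650148, GRCh38.p14, plus strand, from RefSeq) are shown as the promoter under the highest-ranked of these intervals. Capitals mark 3 CCAAT boxes, read as ATTGG, and the half-site core GTTGC, read as GCAAC.
KDM4A: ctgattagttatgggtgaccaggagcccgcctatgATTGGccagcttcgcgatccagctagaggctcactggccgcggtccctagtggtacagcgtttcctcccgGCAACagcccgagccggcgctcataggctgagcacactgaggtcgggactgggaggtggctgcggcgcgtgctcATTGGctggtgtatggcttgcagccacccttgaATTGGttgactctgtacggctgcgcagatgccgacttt

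TSC22D1 (gene ID 8848) is on chromosome 13 from 44432143 to 44577344, on the minus strand, and has 5 annotated start sites in the RefSeq promoter table. Those at 44576565 and 44576330 lie at the far 5′ end, one at 44474341 is inside, and those at 44437248 and 44436858 lie near the 3′ end. The Nutlin-3a interval, 44435178 to 44436306, was inside the gene and downstream of all 5 starts, with its midpoint 1116 bp from the last start and its near edge 552 bp from it. Whether it falls in an exon or an intron was not assigned. It was the widest of the 5 at 1129 bp, rank 16 of 304 by width. Its fold enrichment of 8.42 ranked 27, while its −log10 q of 20.5 ranked 78. The DMSO interval at 44435334 to 44435583, 250 bp wide, lay wholly within it, 156 bp from the lower-coordinate edge and 723 bp from the other, and the midpoints were 283.5 bp apart. Its enrichment was 3.25-fold and its −log10 q was 2.45, which put it at rank 116 of 213 by −log10 q, tied with 6 other intervals, and at rank 56.5 by fold enrichment. No other DMSO interval was listed on chromosome 13. TSC22D1 was the only one of the 5 Nutlin-3a intervals that overlapped a DMSO interval, and 7.24% of all Nutlin-3a intervals did. Ranks from lists of different length do not show a change between treatments. In the Nutlin-3a list its ranked neighbours were the intervals nearest to ITGA3 (27897.5 bp) and MYEOV (146219.5 bp).

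**Figure D2:**
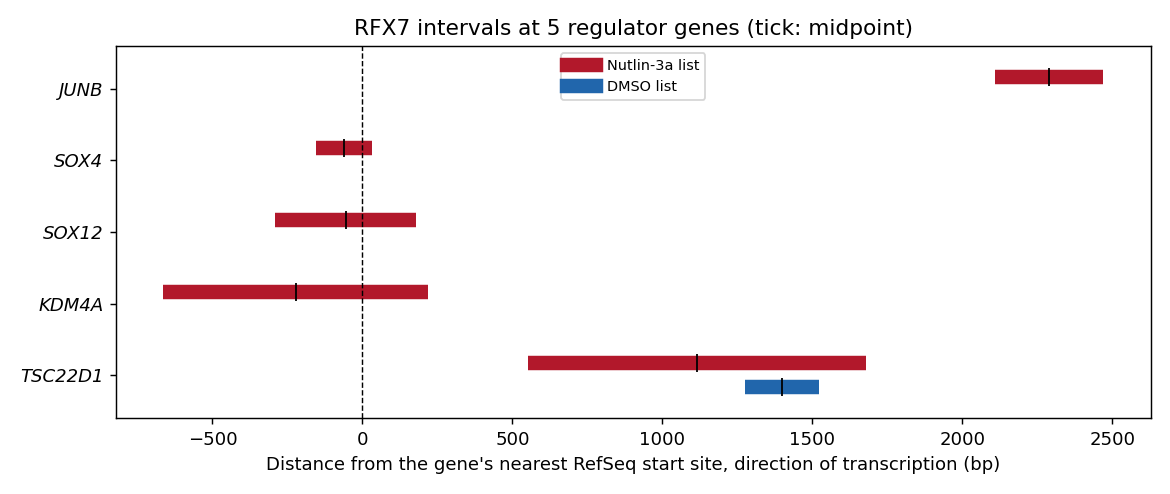
Extent of each interval (bar) and its midpoint (tick) in bp from the gene's nearest RefSeq start site, in the direction of transcription, for the Nutlin-3a list (red) and the DMSO list (blue). The bars of SOX4, SOX12 and KDM4A cross the start site at 0, whereas the Nutlin-3a bar of TSC22D1 begins 552 bp and that of JUNB 2108 bp downstream of it.

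The 5 intervals therefore fell into a pair of arrangements. At SOX4, SOX12 and KDM4A the start site was covered and the midpoint was within 250 bp of it, a distance met by 96 of the 304 Nutlin-3a intervals (31.6%) for any RefSeq start. At JUNB and TSC22D1 the interval was downstream of every annotated start of the gene, although at JUNB the start of HOOK2 was nearer. All 5 midpoints were nearer to an end of the named gene than to that of any other protein-coding gene. A second interval of the same list was never close: the nearest was 182951 bp away, at JUNB, and 691149 bp or more at the other genes. No interval of either list lay just outside a 50 kb window. In the Nutlin-3a list the nearest beyond it was 180.66 kb from JUNB, 691.37 kb from KDM4A and 7382.78 kb from SOX4. It was 7878.19 kb from TSC22D1 and 29543.63 kb from SOX12. For SOX12 a DMSO interval was nearer, at 9356.55 kb.

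Fold enrichment and −log10 q ranked the genes differently. For TSC22D1, the 20 other Nutlin-3a intervals closest in fold enrichment (7.80 to 9.06) had −log10 q values between 23.04 and 40.4 with a median of 32.7, so that of TSC22D1, at 20.5, was below all of them. For SOX12 the corresponding intervals ranged from 15.1 to 37.9 with a median of 28.2, and 1 of 20 was lower than its 15.7. The intervals at JUNB, SOX4 and KDM4A were inside their ranges, with 10, 7 and 14 of 20 lower. The TSC22D1 interval was also broad for its fold enrichment, since 17 of the 20 were narrower, whereas only 3 of 20 were narrower than that of SOX4. The background reads behind these ratios were not used here, so their part in the difference was not tested.

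**Figure D3:**
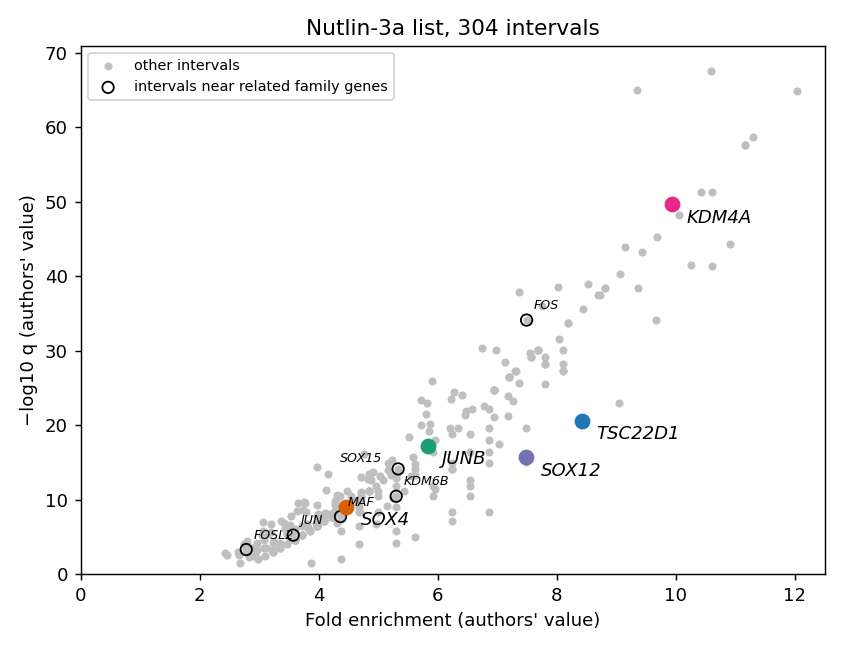
−log10 q against fold enrichment (authors' values, linear axes) for the Nutlin-3a intervals, with the 5 genes in colour and intervals near related family genes as open circles. TSC22D1 (8.42 and 20.5) and SOX12 (7.48 and 15.7) sit at the lower edge of the cloud, and KDM4A (9.94 and 49.7) is near its upper right.

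The promoters were then searched for the X-box. It was written as GTTGC, then 3 or 4 bases of any kind, then the inverted half-site GCAAC. Up to 2 mismatches were allowed over these 10 fixed letters, on either strand. RefSeq promoter windows of 300 bases were found for all 5 genes, 9 in all because TSC22D1 has several. Among all 35116 promoters 19.9% held such a stretch, and among the 146 overlapped by a Nutlin-3a interval 35.6% did. Of the 5 genes only SOX12 had one, TCTGCCCAGCAAC at chr20:325381-325393, from base -171 relative to the start site at 0, with 2 mismatches. None of the 9 windows held the half-site GTTGCNA, which was in 9.21% of all promoters and 28.8% of those overlapped. Such a match describes letters only. The intervals at JUNB and TSC22D1 overlapped no promoter window of their gene, and their own sequence was not used here.

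After the letters had been seen, the shorter core GTTGC and the CCAAT box, the recognition sequence of the factor NF-Y, were searched as well. The core GTTGC overlaps the X-box patterns and was in 2 of the 3 gene promoters covered by an interval, at -163 in SOX12, inside the X-box-like stretch, and at -145 in KDM4A. SOX4 had none. It was also in 2 of the 5 TSC22D1 promoter windows, at -215 for the start at 44576565 and at -180 for that at 44474341, which no interval covered, and not in that of JUNB. It was in 33.6% of all promoters and in 63.0% of those overlapped by a Nutlin-3a interval. The CCAAT box was in all 3 covered promoters, with 4 copies at SOX4 (first bases at -181, -114, -57 and -10, the first of them outside the interval), 3 at KDM4A (-215, -71 and -38) and 1 at SOX12 (-196). It was also in the JUNB promoter, at -67, and in the TSC22D1 promoter nearest to the interval, at -54, as well as in the one for the start at 44474341, at -60, none of which an interval covered. Among all promoters 34.6% held a CCAAT box, and 73.3% of those overlapped did. With 3 covered promoters, their count cannot be set apart from the other overlapped promoters. The overlapped promoters were also richer in G and C, with a median of 65.5% against 58.7% for all, and the part of base composition in these shares was not tested. The promoters of the 3 genes spanned 49.3% at SOX4, 61.0% at KDM4A and 80.3% at SOX12.

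Genes of the same families were listed for context: 15 AP-1 and related leucine-zipper genes, 18 other SOX genes, 22 other histone lysine demethylases and related proteins, and 3 other TSC22D genes. A Nutlin-3a interval was within 50 kb of 6 of these 58 genes, against the 2.94% of all protein-coding genes. They were 4 of 15 AP-1 and related genes (JUN, FOS, FOSL2 and MAF), 1 of 18 SOX genes (SOX15), 1 of 22 demethylases (KDM6B) and 0 of 3 TSC22D genes. In the DMSO list 1 of 58 had an interval, FOS, against 0.559% of all genes.

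The interval near FOS, the main dimer partner of the JUN proteins, had a higher −log10 q than 4 of the 5 genes described above, and a higher fold enrichment than 3 of them. It was at chromosome 14, 75258894 to 75259858, 19452 bp upstream of FOS, enriched 7.49-fold, with a −log10 q of 34.1 and rank 28.5 of 304. A DMSO interval, 75259183 to 75259427, lay inside it at rank 22.5 of 213. The other AP-1 intervals ranked low: MAF at 197.5, 174.5 bp from its start, JUN at 244, inside the gene, and FOSL2 at 280, also inside the gene. In this list JUNB, at rank 93, was thus between FOS and MAF. KDM6B, which removes methyl groups from lysine in histone H3, had an interval inside the gene at rank 148, 4921 bp from its nearest start and 690 bp from an end of the overlapping gene LOC124904106. The interval counted for SOX15, at rank 109.5, was 25059 bp from that gene and 256 bp from an end of FXR2, so proximity does not tie it to SOX15. Within 5 kb, 4 of the 58 family genes had a Nutlin-3a interval, against 1.11% of all protein-coding genes, and FOS and SOX15 dropped out.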

How the data were processed

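The submitters' processing notes name the build hg38 and the tools bcl2fastq 2.20.0.422, Trimmomatic 0.39, FastQC 0.11.9, cutadapt 2.10, SAMtools 1.10, Picard, MACS2 2.2.7.1 and bedtools 2.29.2, without roles or settings. The aligner and the way replicates were merged are not given in the sources used here. The authors deposited 1 interval list per treatment, holding fold enrichment (a ratio), a −log10 q value and a score, besides a −log10 p column. The score deposited by the authors and the −log10 p were not used. The deposited summit column held no position, so midpoints were used. Depth is unknown.

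Starts were converted to 1-based positions. Genes, start sites and promoters came from RefSeq GRCh38.p14 tables. Distances, ranks, overlaps of at least 1 bp and motif matches were computed with Python 3.11.15, pandas 2.3.3 and numpy 2.4.6, after a check on simulated intervals and sequences. No test was run, since values exist once per treatment. Named besides the 5 genes were family genes with an interval within 50 kb, genes nearest to the intervals ranked directly above and below, with all tied intervals added afterwards for SOX4 and KDM4A, and, for location, genes around an interval. An interval that this rule covers is not reported here. The genes and lists were chosen with earlier results of these data known. The searches for the GTTGC core and for the CCAAT box, and the comparison with the 20 intervals of like fold were added after values were seen.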

Additional observations from a re-analysis of the deposited data

How the results depend on the processing

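For 14 results, 44 values were recomputed under other settings. Of these, 29 stayed within 1.5 times the reported number or inside the 95% Wilson interval of the percentile rank (the share of a list ranked lower). This Wilson interval served only as a bound for sorting the values. It holds no replicate error and does not measure the uncertainty of a rank. A −log10 q of at least 10 left 3 of all 213 DMSO intervals and 153 of all 304 Nutlin-3a intervals. At this cut DMSO intervals near the 5 genes, genes with one, and family genes with one all went from 1 to 0. Family genes with a Nutlin-3a interval went from 6 to 3. Among the 5 genes, SOX4 was the one lost from the Nutlin-3a count, which became 4. The share of all protein-coding genes at this cut was not computed, so these drops are not read as particular to these genes. Keeping only the upper part of each list, from its median −log10 q, gave a DMSO count of 0. Within 5 kb, 0 family genes had a DMSO interval. With 50% overlap of both intervals, 0 of the 5 genes' intervals were shared. The widths fixed this count, since the 250 bp DMSO interval at TSC22D1 lies within a Nutlin-3a interval of 1129 bp. Ranking by fold enrichment moved the percentile of SOX12 from 67.4 to 83.7, and that of TSC22D1 from 74.5 to 91.3 after Nutlin-3a and from 45.8 to 73.7 after DMSO. Joining intervals within 1 kb, which left 258 in the Nutlin-3a list, moved JUNB from 69.6 to 64.1, SOX4 from 43.4 to 34.7 and SOX12 to 61.6. X-box-like stretches were in 0 of the 5 genes with 1 mismatch and in 3 with 3, where 83.0% of all promoters held one. The cause was not tested beyond what each setting does by construction. No paired analysis was possible because the replicates of a treatment were deposited as 1 list, and leaving out replicates was not run for the same reason. The unknown depth limits any reading between treatments.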
